A study of Mus musculus with 4 samples.

Results

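Cytochromes P450 are haem enzymes that insert oxygen into lipids, steroids, vitamins, drugs and dietary compounds. The genes described here are all those listed in the deposited tables whose mouse symbol is Cyp followed by a digit, with a summed count of at least 10 over the 4 libraries, plus Por and without the cholesterol synthesis gene Cyp51. Of 18872 genes listed, 43 met this rule: 42 Cyp entries, of which 2 are pseudogene models (Cyp2d37-ps and Cyp4f41-ps), and Por. The libraries are RNA-seq of primary colon epithelial cells from mice given 2% dextran sulfate sodium (DSS), an agent that damages the gut epithelium and causes colitis, for 3 days. The knockout libraries (KO_DSS, n = 2) came from EZH2-IEC-/- mice, a label for loss of Ezh2, the methyltransferase of Polycomb repressive complex PRC2, and the wild-type libraries (WT_DSS, n = 2) came from wild-type mice. Both groups had received DSS, and untreated mice were not analysed here. The labels used here give neither the Cre driver, the allele, the strain, the age nor the number of mice behind a library, so the p-values rest on library-to-library spread, part or all of which may be technical.

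Most P450 enzymes of families 1 to 4 sit in the endoplasmic reticulum and act on xenobiotics, fatty acids and eicosanoids. They receive their electrons from the flavoprotein P450 oxidoreductase, the product of Por. Families with higher numbers mostly act on sterols, bile acids, steroid hormones, retinoic acid and vitamin D, some of them in mitochondria, where ferredoxin supplies the electrons. In the gut the enzymes of absorptive cells form a first barrier to ingested compounds. Many P450 genes lie in tandem arrays of close paralogs, so that reads can match more than 1 gene.

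Estimated counts summed to 5399949 and 5446998 in the knockout libraries and to 5037367 and 5236519 in the wild-type libraries. Ezh2 itself had 86 and 83 counts in the knockout libraries, against 105 and 102 in the wild-type libraries, and did not pass the test (log2 fold change -0.27 ± 0.17, edgeR adjusted p = 0.217). These gene-level counts cannot reveal a deleted exon, and the deleted region is not stated in the labels used here, so they are no check of the genotypes. Differences are given as log2 fold changes of knockout over wild type, from edgeR's quasi-likelihood test over 13608 genes. Standard errors, where given, were derived from the test statistic and can understate counting error where a group has few counts. A gene was called at an adjusted p under 0.05 (Benjamini-Hochberg). FPKM, which is scaled to transcript length and library size, was used where levels of single genes are set side by side. Shares and sums over the members described here rest on counts, which are not scaled to transcript length. FPKM is given per library, knockout replicates 1 and 2 before wild-type replicates 1 and 2, or as a mean ± SD with n = 2 per group. Marker genes of several cell types are counted here as called. Of all tested genes, 20.8% fell and 23.0% rose (43.7% were called in either direction). Of 13 tested absorptive colonocyte markers 9 fell and 4 rose, and the summed FPKM of 14 markers, without Muc3, was 2625 and 2866 in knockout, against 4910 and 4970 in wild type. Of 8 general epithelial markers 5 rose and 2 fell, with sums of 8735 and 9059 in knockout, against 7916 and 8310 in wild type. Of 12 stromal markers 10 fell and 1 rose, with sums of 1143 and 1452 in knockout, against 2413 and 2608 in wild type. Of 15 myeloid markers 10 rose and the other 5 were not called, with sums, without Ly6g, of 626.4 and 647.6 in knockout, against 342.4 and 370.5 in wild type. Of 10 lymphocyte markers 7 rose and 2 fell, with sums of 277 and 345 in knockout, against 207.7 and 187.1 in wild type. Of 6 endothelial markers 3 fell and the others were not called, with sums of 25.4 and 28.7 in knockout, against 45.9 and 44.9 in wild type. Slc51a was the one marker without counts in a whole group, wild type. The part of these differences in the P450 values was not tested, and in bulk RNA fewer cells of a type and less RNA per cell cannot be told apart.

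The P450 genes of the DSS-treated colon epithelium were mostly lower in the knockout, and a few were higher. Counts over the 43 members summed to 4886.9 and 5556.3 in knockout, against 11440.5 and 11909 in wild type, a log2 ratio of -1.14 after scaling of the libraries (-1.23 within replicate number 1 and -1.06 within number 2). Of the 43 members, 32 passed the filter on low counts. Of these 21 fell, 4 rose and 7 were not called, whereas 20.8% of all tested genes fell and 23.0% rose (43.7% were called in either direction). Without overlap between the groups, 23 tested members were lower and 4 higher in knockout, against 36.4% and 36.8% of all tested genes. The median log2 fold change was -1.19 over the tested members, also with Cyp2c69 at its bound, and -0.002 over all tested genes. Of the tested members, 5 passed the filter through their wild-type counts alone (Cyp2c55, Cyp2c65, Cyp2c69, Cyp2f2 and Cyp21a1) and none through knockout counts alone, so the counts of called members describe the genes that were measurable and are no test of the group. Without the filter, all 43 entered the fit, of which 22 fell and 4 rose. In that fit 5480 of 18798 genes were called in either direction. None of the 25 called members overlapped between the groups. That fixes their direction within both replicate numbers, so the agreement there is no further support.

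**Figure D1:**
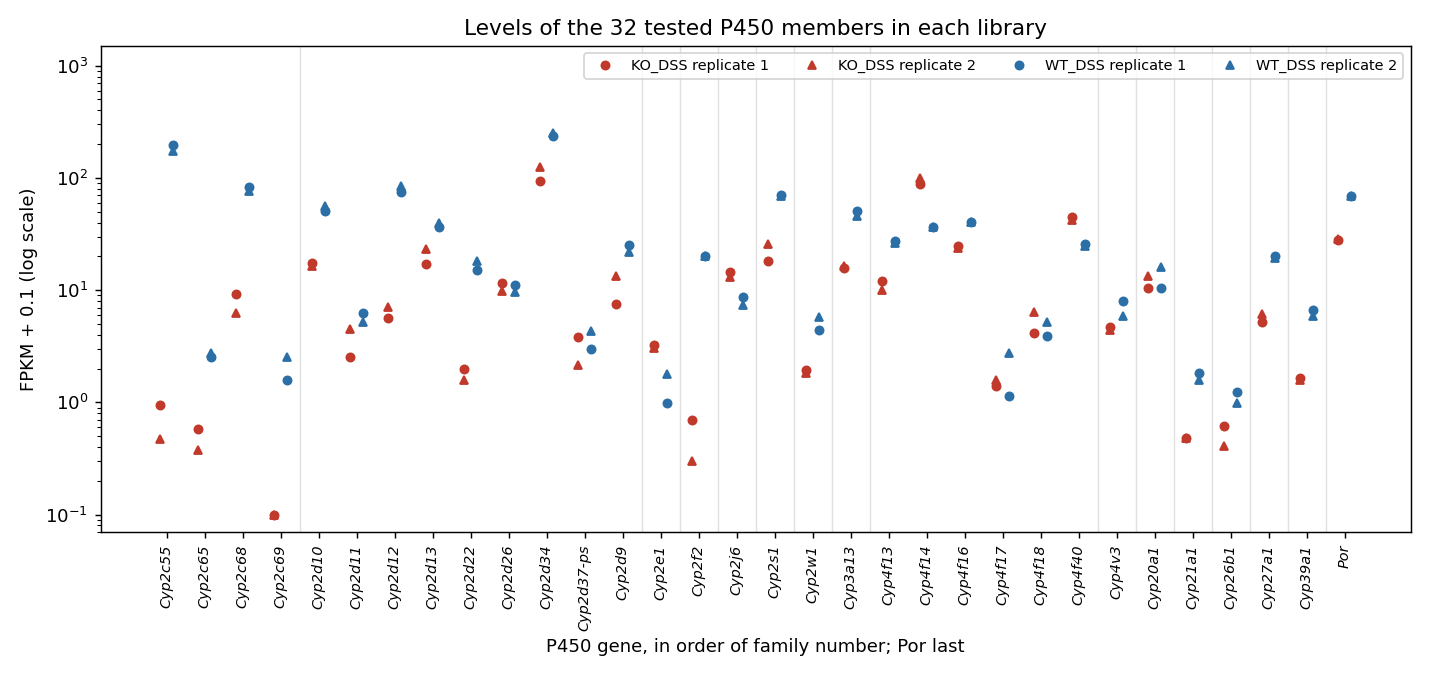
FPKM plus 0.1 on a log axis for each of the 32 tested P450 members, knockout left (red) and wild type right (blue) of each gene's tick, with a circle for replicate 1 and a triangle for replicate 2. Cyp2c55 lies at 0.84 and 0.37 FPKM in knockout, against 198 and 174.86 FPKM in wild type, whereas Cyp4f14 lies at 87.8 and 99.3 FPKM in knockout, against 36.3 and 36.2 FPKM in wild type.

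Por, which encodes the shared electron donor, fell with them. It had 374 and 390 counts in knockout, against 859 and 919 in wild type, or 28.1 ± 0.09 FPKM in knockout and 69.2 FPKM in each wild-type library. The groups were far apart relative to the spread within them (log2 fold change -1.20 ± 0.09, adjusted p = 1.53e-05). Leaving out any 1 library gave values between -1.22 and -1.17.

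Family 2, the largest, held 25 members and the largest differences. Of its 18 tested members 13 fell and 2 rose, beside 20.8% and 23.0% of all tested genes. Cyp2c55, Cyp2c65, Cyp2c69 and Cyp2f2 passed the filter through wild-type counts alone, so this count is no test of the family. The Cyp2c subfamily, whose enzymes oxidise arachidonic acid and many drugs, fell to low counts in the knockout libraries, with 107 and 71 counts over its 6 members in knockout, against 2780.8 and 2597 in wild type, a log2 ratio of the sums of -4.89. Cyp2c55, a P450 of the colon that hydroxylates arachidonic acid, carried most of it. It had 9 and 4 counts in knockout, against 1983 and 1821 in wild type, and fell by 8.14 ± 0.21 on the log2 scale (adjusted p = 3.52e-08). Its share of the counts of all members, Por included, was 0.184% and 0.072% in knockout, against 17.3% and 15.3% in wild type. In wild type it was second in FPKM to Cyp2d34 alone, and in knockout 9 or fewer counts remained per library. When any 1 library was left out, the log2 fold change of Cyp2c55 lay between -8.85 and -7.68.

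Among the listed genes of the array, Cyp2c68 was second in wild-type FPKM to Cyp2c55. Cyp2c68 was at 9.08 and 6.2 FPKM in knockout, against 82.9 and 76.6 FPKM in wild type. It fell by 3.28 ± 0.16 on the log2 scale (adjusted p = 9.4e-07). Cyp2c65 had 5 and 3 counts in knockout, against 23.8 and 27 in wild type, and fell too (log2 fold change -2.61 ± 0.46, adjusted p = 0.00171). Cyp2c69 had no counts in knockout, against 13.2 and 22.4 in wild type. With the knockout set to a floor of 3 counts per library, Cyp2c69 was at least 5.82-fold lower, a bound for counting error only. It was called as well (adjusted p = 0.00125). Cyp2c67 also had no counts in knockout, against 6.11 and 7 in wild type, too few to be tested. With the same floor Cyp2c67 was at least 2.15-fold lower, again for counting error only. The transcripts of Cyp2c69 and Cyp2c67 share much sequence with other P450 transcripts (54.8% and 52.8%, described below). For Cyp2c69, Cyp2c67 and Cyp2c68 the largest overlap was with Cyp2c40 (46.3%, 40% and 35.6%). Cyp2c40 lies in the same array but is not among the listed genes. Whether its reads were counted under these genes was not tested. Neither bound covers how reads were divided among such paralogs, which was not tested. In all 4 tested Cyp2c members the knockout libraries lay below the wild-type libraries, but all of these except Cyp2c68 passed the filter through wild-type counts alone. Cyp2c23 lies outside this array in the RefSeq table and was not tested, with 6 and 4 counts in knockout, against 14 and 8 in wild type.

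Because the array fell together, the 250 bases before the annotated start of its 4 tested genes are shown, with that of Cyp2f2, which had the largest fall outside the array, for comparison. They are printed from 5′ to 3′ on the gene's strand, from RefSeq with build GRCm38.p6. Capitals mark matches on either strand to the letters TATAAA (the TATA box), CAAAGTCCA (a hepatocyte nuclear factor 4 site), AGGTCA (a nuclear receptor half-site) and GCGTG (the core of the dioxin response element).
Cyp2c55 (chr19:39006769-39007018, strand +): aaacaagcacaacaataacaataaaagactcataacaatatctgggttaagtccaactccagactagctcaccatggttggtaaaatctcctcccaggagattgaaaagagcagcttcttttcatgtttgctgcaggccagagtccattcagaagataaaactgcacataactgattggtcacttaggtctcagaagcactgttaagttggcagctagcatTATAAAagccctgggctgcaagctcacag
Cyp2c65 (chr19:39060756-39061005, strand +): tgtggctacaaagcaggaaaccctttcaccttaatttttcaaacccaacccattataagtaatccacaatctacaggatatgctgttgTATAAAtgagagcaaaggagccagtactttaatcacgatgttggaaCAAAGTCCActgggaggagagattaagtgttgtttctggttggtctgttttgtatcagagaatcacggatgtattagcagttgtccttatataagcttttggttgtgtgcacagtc
Cyp2c68 (chr19:39741102-39741351, strand -): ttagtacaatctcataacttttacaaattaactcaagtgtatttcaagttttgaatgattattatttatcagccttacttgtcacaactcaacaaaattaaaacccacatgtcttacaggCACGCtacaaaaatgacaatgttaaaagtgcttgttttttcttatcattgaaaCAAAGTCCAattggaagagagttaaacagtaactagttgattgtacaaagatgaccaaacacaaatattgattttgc
Cyp2c69 (chr19:39886770-39887019, strand -): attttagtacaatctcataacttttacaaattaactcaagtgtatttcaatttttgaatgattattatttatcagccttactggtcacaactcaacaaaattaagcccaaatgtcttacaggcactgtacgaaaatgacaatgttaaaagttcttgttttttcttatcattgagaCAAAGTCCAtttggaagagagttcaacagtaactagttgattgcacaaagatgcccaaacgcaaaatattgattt
Cyp2f2 (chr7:27119705-27119954, strand +): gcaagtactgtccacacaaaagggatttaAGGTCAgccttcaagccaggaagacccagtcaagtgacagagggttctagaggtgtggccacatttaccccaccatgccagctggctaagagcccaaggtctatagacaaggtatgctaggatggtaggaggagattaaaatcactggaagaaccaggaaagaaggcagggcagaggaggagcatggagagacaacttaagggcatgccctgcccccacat
The Cyp2c55 window holds TATAAA beginning 29 bases before the start. CAAAGTCCA stands 116, 77 and 75 bases before the start in Cyp2c65, Cyp2c68 and Cyp2c69, on the gene's strand each time, and is not in the Cyp2c55 window. Promoter windows were found for 31 of the 43 members. CAAAGTCCA was in those of 4 members, the 3 above and Cyp2c67. Of 32851 windows of the same length over the genome, 0.384% held it. Among called members with a window, it was in 3 of 15 that fell and 0 of 4 that rose. The identity of the Cyp2c67 window to the others was not computed, so the 4 matches may not be independent. The windows of Cyp2c68 and Cyp2c69 were identical at 232 of 254 aligned columns (91.3%) and so are not independent, whereas that of Cyp2c65 was identical to them at 48.1% and 47.3% of columns. The window of Cyp2c55 was identical to that of Cyp2c65 at 53.2% and to that of Cyp2c68 at 44.6% of columns, close to the 47.8% between Cyp2c55 and the unrelated Cyp2f2 window. TATAAA was in the windows of 10 members, AGGTCA in that of 1 and GCGTG in those of 9, against 12.4%, 14% and 28.2% of all windows. The motifs do not overlap one another in the printed windows, and a match is a stretch of letters and not a measured site.

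The Cyp2d subfamily, relatives of the human drug-metabolising CYP2D6, was the P450 group with the highest counts in wild type. Its 10 members summed to 1410 and 1790 counts in knockout, against 3809 and 4272.7 in wild type, a log2 ratio of the sums of -1.31. This sum does not depend on how reads were divided among these 10 genes, though paralogs outside them can share reads. Cyp2d34 had the highest FPKM of any member, 93.95 and 124.62 FPKM in knockout, against 234.04 and 252.59 FPKM in wild type, and fell by 1.05 ± 0.13 on the log2 scale (adjusted p = 0.000224). Unlike Cyp2c55 it kept its place in the pool, with 16.8% and 19.8% of all member counts in knockout, against 16.6% and 17.9% in wild type. Cyp2d12 and Cyp2d22 had the largest differences. Cyp2d12 was at 5.58 and 6.99 FPKM in knockout, against 74.1 and 84.8 FPKM in wild type (log2 fold change -3.55 ± 0.14, adjusted p = 3.69e-07). Cyp2d22 was at 1.89 and 1.47 FPKM in knockout, against 14.92 and 17.95 FPKM in wild type (log2 fold change -3.18 ± 0.20, adjusted p = 4.45e-06). Cyp2d10, Cyp2d9 and Cyp2d13 fell by 1.54, 1.08 and 0.83 on the log2 scale, each without overlap between groups.

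Other Cyp2d genes were not called. Cyp2d26, at the end of the array in the RefSeq order, was at 11.39 and 9.75 FPKM in knockout, against 10.95 and 9.45 FPKM in wild type, and the groups overlapped (log2 fold change 0.16 ± 0.18, adjusted p = 0.517). With FPKM rescaled to equal totals its sign turned to -0.03. Cyp2d11 was at 2.44 and 4.41 FPKM in knockout, against 6.15 and 5.14 FPKM in wild type, and was not called (adjusted p = 0.149), but passed without knockout replicate 2 (log2 fold change -1.10, adjusted p = 0.029). The pseudogene model Cyp2d37-ps was not called (adjusted p = 0.656), and Cyp2d40 had 7.51 counts or fewer in each library.

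The remaining single-gene subfamilies of family 2 moved in both directions. Cyp2f2, best known for activating naphthalene in the club cells of the mouse lung, had 6 and 2 counts in knockout, against 186 and 195 in wild type. It fell by 5.51 ± 0.31 on the log2 scale (edgeR adjusted p = 2.25e-06). Its log2 fold change lay between -6.48 and -4.93 when any 1 library was left out. Cyp2s1, a P450 of extrahepatic epithelia, had 257 and 372 counts in knockout, against 934 and 958 in wild type, and fell by 1.57 ± 0.15 (adjusted p = 6.07e-05). Cyp2w1, known in humans from the fetal colon and colorectal tumours, had 15 and 14 counts in knockout, against 33 and 45 in wild type. Its fall by 1.39 ± 0.32 was called (adjusted p = 0.00733), but not without wild-type replicate 2 (-1.18, adjusted p = 0.0541).

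Cyp2j6, an epoxygenase of fatty acids, was higher in the knockout. It had 283 and 257 counts in knockout, against 157 and 138 in wild type, a log2 fold change of 0.89 ± 0.13 (adjusted p = 0.000763). Its array neighbour Cyp2j9 was too low to be tested, with 4 and 10 counts in knockout, against 10 and 5 in wild type. Cyp2e1, the ethanol-oxidising P450, was counted at 29.9 and 28.3 in knockout, against 7.79 and 15.6 in wild type. It rose by 1.29 ± 0.39 on the log2 scale (adjusted p = 0.0254), with values of 1.62 within replicate number 1 and 0.75 within number 2. The call was lost without wild-type replicate 1 (0.90, adjusted p = 0.154), without knockout replicate 1 (1.22, adjusted p = 0.0791) and with DESeq2 (1.30, adjusted p = 0.102). Cyp2u1, a fatty acid hydroxylase, was too low for the filter, with 0 and 1 counts in knockout, against 6 and 13 in wild type, a ratio of 18.7 in favour of wild type with a 95% exact interval of 2.97 to 777. Cyp2r1, a vitamin D 25-hydroxylase, had 5 counts in each knockout library, against 7 and 11 in wild type.

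**Figure D2:**
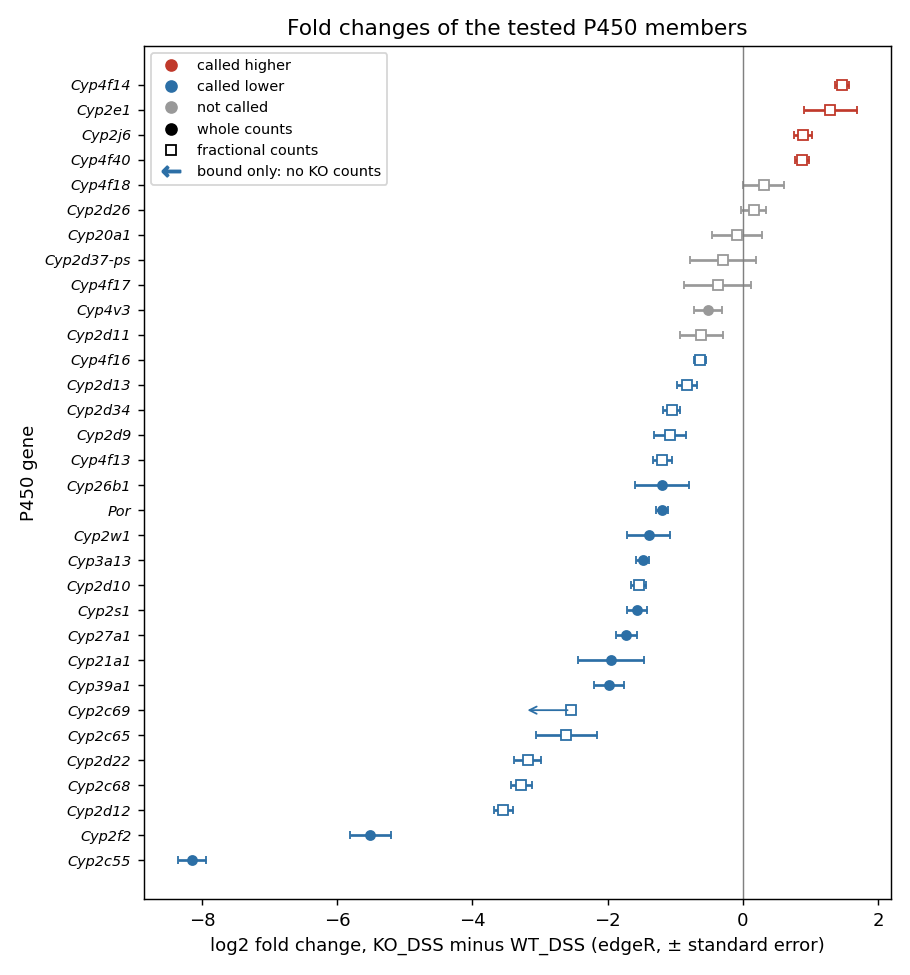
Log2 fold change, knockout minus wild type, with its standard error for the 32 tested members, ordered from highest to lowest. Filled circles have whole counts in all libraries and open squares have fractional counts. The arrow marks Cyp2c69, which had no knockout counts and is drawn at its bound for counting error only. The values run from 1.46 (Cyp4f14) to -8.14 (Cyp2c55).

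Family 3 was represented by Cyp3a13 alone, a steroid and drug oxidising P450 of the mouse intestine. It was at 15.75 and 16.29 FPKM in knockout, against 50.37 and 45.81 FPKM in wild type. It fell by 1.48 ± 0.10 on the log2 scale (adjusted p = 6.53e-06). Cyp3a11, the main Cyp3a gene of mouse liver, had 1 count in each knockout library and none in wild type.

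Family 4, whose enzymes hydroxylate fatty acids, leukotrienes and vitamin E side chains at their far end, had members that rose and members that fell. Its 10 members summed to 1950 and 2080 counts in knockout, against 1464.9 and 1509 in wild type, a log2 ratio of 0.46. The higher sum in knockout rested on Cyp4f14, without which the other 9 summed to 906.7 and 887 counts in knockout, against 1062 and 1087.6 in wild type, a log2 ratio of -0.24. Of 7 tested members 2 rose and 2 fell, beside 23.0% and 20.8% of all tested genes, and their median log2 fold change was -0.37. Cyp4f14, a hydroxylase of leukotriene B4 in the mouse, rose most of all P450 genes. It was at 87.8 and 99.3 FPKM in knockout, against 36.3 and 36.2 FPKM in wild type (log2 fold change 1.46 ± 0.10, edgeR adjusted p = 7.44e-06). Cyp4f14 made up 21.3% and 21.5% of all member counts in knockout, against 3.52% and 3.54% in wild type. Cyp4f40 had 44.4 and 41.8 FPKM in knockout, against 25.9 and 24.5 FPKM in wild type, and rose by 0.87 ± 0.10 (adjusted p = 0.00019).

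The array also held genes that fell. Cyp4f13, which directly follows Cyp4f14 on the chromosome in the RefSeq table, was at 11.94 and 9.97 FPKM in knockout, against 27.51 and 26.24 FPKM in wild type (log2 fold change -1.19 ± 0.14, adjusted p = 0.000191). Cyp4f16 was at 24.8 and 23.5 FPKM in knockout, against 40.1 and 40.5 FPKM in wild type, and fell by 0.64 ± 0.09 (adjusted p = 0.000667). Both neighbours Cyp4f13 and Cyp4f14 thus passed the test in opposite directions, and did so in each alternative that tested them. Cyp4f17 was at 1.29 and 1.47 FPKM in knockout, against 1.05 and 2.67 FPKM in wild type, and overlapped between groups (adjusted p = 0.58). Cyp4f18, a leukotriene B4 hydroxylase of mouse neutrophils that lies on another chromosome than the array, was at 4.04 and 6.34 FPKM in knockout, against 3.84 and 5.14 FPKM in wild type, and was not called (log2 fold change 0.30 ± 0.30, adjusted p = 0.444). The neutrophil markers S100a8 and S100a9 had log2 fold changes of 5.51 and 5.49 in these libraries and the receptor Csf3r 1.47, whereas Cxcr2 was not called (0.39, adjusted p = 0.339) and Ly6g had counts in the replicate 2 tables alone. Their part in the Cyp4f18 values was not tested. Cyp4v3, the mouse relative of the human corneal dystrophy gene CYP4V2, had 73 and 69 counts in knockout, against 117 and 89 in wild type. It missed the threshold (log2 fold change -0.52 ± 0.20, adjusted p = 0.0692) but passed without wild-type replicate 2 (-0.72, adjusted p = 0.0272).

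**Figure D3:**
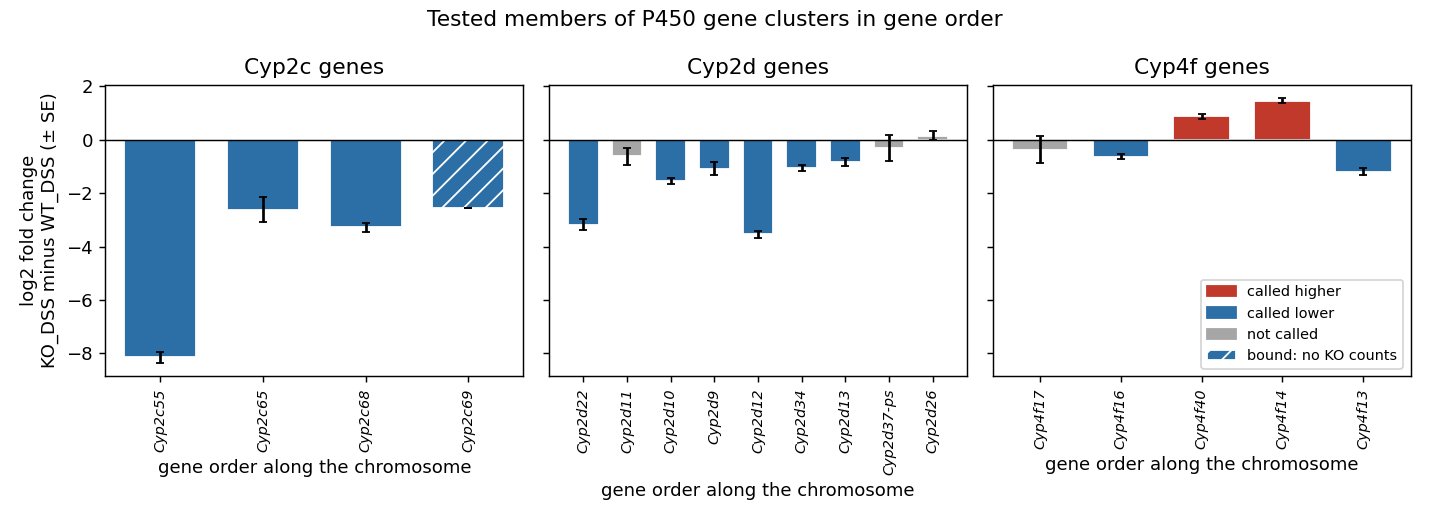
Log2 fold change, knockout minus wild type, with its standard error for the tested genes of the Cyp2c, Cyp2d and Cyp4f arrays, in their order along the chromosome in the RefSeq table (distances not to scale). The Cyp2c bars all point down, with the hatched Cyp2c69 bar drawn at its bound, whereas in the Cyp4f array Cyp4f40 (0.87) and Cyp4f14 (1.46) point up between Cyp4f16 (-0.64) and Cyp4f13 (-1.19).

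P450 genes of sterol, steroid and retinoid metabolism fell where they could be tested. Cyp27a1, the mitochondrial sterol 27-hydroxylase, had 52 and 63 counts in knockout, against 189 and 197 in wild type (log2 fold change -1.72 ± 0.16, adjusted p = 4.63e-05). Cyp39a1, an oxysterol 7α-hydroxylase, had 25 and 24 counts in knockout, against 103 and 95 in wild type, and fell by 1.99 ± 0.22 (adjusted p = 0.000143). Cyp21a1, the steroid 21-hydroxylase, had 4 counts in each knockout library, against 17 and 15 in wild type. It fell by 1.95 ± 0.49 (adjusted p = 0.011), and with DESeq2 the log2 fold change was -1.98 but the call was lost (adjusted p = 0.0855). Cyp26b1, which breaks down retinoic acid, had 13 and 8 counts in knockout, against 27 and 22 in wild type. Its fall by 1.19 ± 0.40 had the highest adjusted p among the called members (0.0387, edgeR). The call was lost without wild-type replicate 1 (log2 fold change -1.01, adjusted p = 0.164), without wild-type replicate 2 (-1.36, adjusted p = 0.0558), without knockout replicate 2 (-0.88, adjusted p = 0.175), with DESeq2 (-1.20, adjusted p = 0.171) and without the filter (-1.18, adjusted p = 0.0545).

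Cyp20a1, a P450 of unknown substrate, had 83 and 156 counts in knockout, against 77 and 182 in wild type. Its counts followed the replicate number and not genotype. It is the one member whose transcript list differs between the replicate 1 and replicate 2 tables, and it was not called (adjusted p = 0.868). Cyp7b1, an oxysterol hydroxylase, had 7 counts in each knockout library, against 6 and 2 in wild type, and was not tested. Also too low were Cyp2j13, Cyp4b1, Cyp4f37 and Cyp4f41-ps, which had at most 10.03 counts in a knockout library and at most 16.08 in a wild-type library.

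The count minimum left out 25 listed P450 genes, with sums of 0.98 to 9.2 counts. Cyp4a31, at 9.2, lay just outside and Cyp4f41-ps, at 11, just inside. Cyp1a1, the classic target of the aryl hydrocarbon receptor, was among those left out, with 1 count in each knockout library, against 4 and 1 in wild type. So were Cyp1b1, with 4 counts in all, the steroidogenic genes Cyp11a1 and Cyp11b1, with 2 and 4, and the vitamin D genes Cyp24a1 and Cyp27b1, with 1 and 5. At this depth no difference was detectable for these genes.

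**Figure D4:**
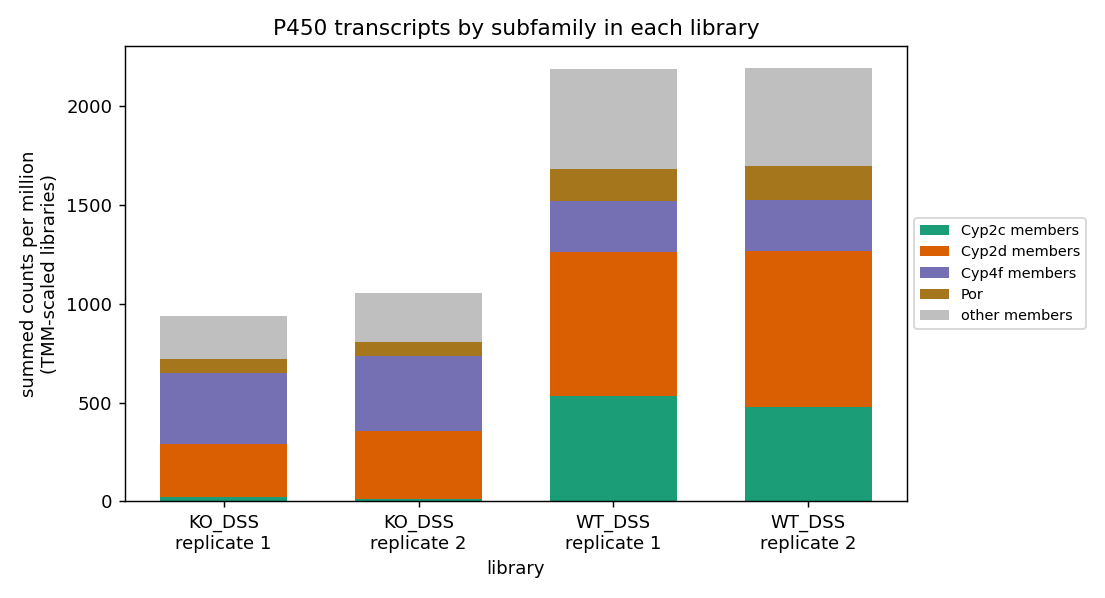
TMM-scaled CPM summed over the P450 members in each library, stacked by subfamily with Por as a segment of its own, knockout bars left of wild-type bars. Cyp2c members amount to 20.5 and 13.5 CPM in knockout, against 532.8 and 479.2 in wild type, and Cyp4f members to 359.7 and 381.5 in knockout, against 256.6 and 260.7 in wild type.

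Many members had counts divided among paralogs. Of the 43 members, 17 had whole counts in every library and 26 had fractional counts in at least 1. For 42 members a GENCODE M21 transcript was found, and the share of its 50-base words that also occur in another P450 transcript was computed. Among the 25 with fractional counts this share had a median of 10.5% and reached 54.8% (Cyp2c69), and 1 of them, Cyp20a1, shared none. Among the 17 with whole counts 15 shared none, and the exceptions were Cyp2c55 at 0.514% and Cyp21a1, whose transcript shares 23.7% of its words with the pseudogene Cyp21a2-ps. Cyp2c67, Cyp2c68, Cyp2d10 and Cyp2d11 shared 52.8%, 43.3%, 39.8% and 36.5%. Cyp2d9, Cyp4f16, Cyp2d40 and Cyp4f37 shared 28.3%, 25.8%, 24.1% and 21.7%. Cyp2c65, Cyp2d12 and Cyp2d34 shared 20.2%, 16.3% and 13.2%. The values of these members and of Cyp2c69 are therefore uncertain. No transcript was found for Cyp2d13, which also had fractional counts. Cyp4f14, Cyp4f40 and Cyp4f13 shared 2.46%, 2.16% and 2.7%, and Cyp2j6 shared 0.422%. Among the 11 tested members with whole counts, 10 fell and 1, Cyp4v3, was not called, whereas 20.8% of all tested genes fell. Of those that fell, Cyp2c55, Cyp2f2 and Cyp21a1 passed the filter through wild-type counts alone, so this count is no test of the group. All 4 called rises, by contrast, were of members with fractional counts. When any 1 library was left out the log2 fold change stayed between 1.37 and 1.54 for Cyp4f14 and 0.82 and 0.92 for Cyp4f40. It ran between 0.78 and 1.02 for Cyp2j6 and between 0.90 and 1.84 for Cyp2e1. Leaving out a library does not address how reads were divided among paralogs.

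Genes that act with the P450 enzymes were read from lists chosen with earlier results of these data known, and each count stands beside the background of 20.8% lower and 23.0% higher. Of 21 tested regulators of P450 genes, 12 fell and 1 rose, with a median log2 fold change of -0.47. Vdr, the vitamin D receptor, was at 41.6 and 42 FPKM in knockout, against 135.4 and 140.8 FPKM in wild type (log2 fold change -1.62, adjusted p = 9.4e-07), and Nr5a2, a nuclear receptor of steroid and bile acid genes, fell by 1.29. Nr1h4, the bile acid receptor FXR, rose by 0.90. Hnf4a, named after its values were seen because of the motif above, was at 156 and 165 FPKM in knockout, against 251 and 254 FPKM in wild type, and fell by 0.55 ± 0.07 (adjusted p = 0.000379). Of 8 tested redox partners other than Por, only Pgrmc1, a haem-binding partner of P450 enzymes, was called, and fell by 0.32 (adjusted p = 0.0406).

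Of 13 tested genes of haem synthesis and breakdown, 5 rose and the other 8 were not called. Hmox1, the inducible haem oxygenase, was at 11.4 and 12.7 FPKM in knockout, against 3.05 and 3.76 FPKM in wild type (log2 fold change 1.92, adjusted p = 0.000158). Alas1, the rate-limiting enzyme of haem synthesis outside red cells, rose by 0.94.

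Partners of the retinoid, steroid and eicosanoid P450 genes were mixed. Of 10 tested genes of retinoic acid synthesis and binding, 4 rose and 4 fell. Dhrs9, a retinol dehydrogenase, was at 28.7 and 25.1 FPKM in knockout, against 1.26 and 1.62 FPKM in wild type (log2 fold change 4.31 ± 0.17, adjusted p = 3.8e-07), while Rbp2 and Aldh1a1 fell by 1.88 and 1.03. Of 10 tested steroid and vitamin D partners 5 fell and 2 rose. Hsd3b3, a 3β-hydroxysteroid dehydrogenase, was at 1.97 and 2.22 FPKM in knockout, against 24.97 and 29.51 FPKM in wild type, and fell by 3.60. Hsd11b2, which inactivates glucocorticoids, and S100g, a calcium-binding protein induced by vitamin D, fell by 1.84 and 1.63. Of 5 tested epoxide hydrolases and P450-like eicosanoid enzymes, Ephx4 alone was called, and fell by 1.27.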

How the data were processed

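Total RNA came from a Trizol extraction and libraries from a TruSeq RNA kit, per the labels' protocols. The submitters' processing notes name Bowtie2, BWA and the human build hg19 without saying how they were used for these mouse libraries, and no source used here names the quantification program. The deposited tables, 1 per library, hold expected counts, a transcript length and FPKM per gene. The expected count (an estimated count that need not be whole) and FPKM were computed by the authors, per the file headers. Because of the build, no coordinates were taken from the tables. Gene order and promoter windows come from RefSeq (GRCm38.p6), and 18820 of the 18872 listed gene IDs matched it.

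After rounding of the expected counts to integers, genes were compared with edgeR 4.0.16 (R 4.3.3, quasi-likelihood, TMM scaling, filterByExpr, Benjamini-Hochberg adjustment over all tested genes), a script that was tested on simulated data. Standard errors are of the fitted log2 fold change. Each library was treated as 1 sample. Replicates differed by more than sampling noise (chi-square per degree of freedom 2.99 for the knockout pair and 2.22 for the wild-type pair). That spread does not show whether they came from separate mice. The labels name no batch. For some genes the listed transcripts differed between the deposited tables, and the fit restricted to genes with the same transcripts tested 13070 genes. Floors (3 counts per library) and the 95% exact intervals cover counting error only.

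The members and gene lists were chosen with earlier results of these data known. Named were members past the threshold, the 10 with the highest mean FPKM, members of families 1, 11, 24, 26 and 27, Por, and up to 3 called genes per related list by smallest p, of which 1 is not reported here. All other members and genes named were added after their values were seen, most of them to account for every member. Alternatives were library totals, RLE factors, DESeq2 1.42.0, no filter, an FPKM minimum, genes with the same transcripts in all tables, a replicate block, limma 3.58.1 on log2(FPKM + 1) or + 0.1, and leaving out each library.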

Additional observations from a re-analysis of the deposited data

How the results depend on the processing

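Over the alternatives the number of called genes stayed between 4379 (DESeq2) and 7403 (replicate block), against 5950 as reported, and was 4827 to 5718 when 1 library was left out. The P450 members called higher numbered 3 to 4 and those called lower 18 to 22. Of the 25 called members 21 kept their call under every alternative that tested them, and Cyp2e1, Cyp2w1, Cyp21a1 and Cyp26b1 lost it under at least 1. Signs turned only for members that were not called: Cyp2d26 to -0.026 with FPKM at equal totals, Cyp2d37-ps to 0.087 and Cyp4f18 to -0.062 without knockout replicate 2, Cyp4f17 to 0.46 and Cyp20a1 to 0.63 without wild-type replicate 2, and Cyp20a1 to 0.28 without knockout replicate 1. With 1 library left out, the log2 fold change ran between -0.82 and 0.087 for Cyp2d37-ps, -0.89 and 0.46 for Cyp4f17, -0.062 and 0.58 for Cyp4f18, and -0.60 and 0.63 for Cyp20a1. The cause was not tested. With library totals alone the median log2 fold change of all genes was -0.10, and with FPKM at equal totals -0.14, against -0.002 as reported, and Cyp4v3 was then called lower. The labels do not pair the replicate numbers. Deviations of same-numbered libraries correlated at 0.571 over all tested genes and at 0.299 over genes with the same transcripts, and with the replicate number as a block 4 members were called higher and 22 lower. Depth limits the 11 members that the filter left untested, of which Cyp2c67 (adjusted p = 0.0315) and Cyp2u1 (adjusted p = 0.0304) were called lower by edgeR without the filter.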
